A study of Mus musculus with 21 samples.

Results

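The tumour necrosis factor (TNF) superfamily and the ectodysplasin pathway were examined in epidermal keratinocytes of mice with prolonged p16 expression. Members were chosen by a rule on gene names, with earlier results of these data known. The rule took every gene named as a numbered TNF ligand or receptor, every TNF receptor-associated factor (Traf), and 16 relatives with other names. The relatives included Fas, Ngfr and the ectodysplasin genes Eda, Edar, Edaradd and Eda2r. The rule gave 54 members among 22050 entries. Of these, 33 passed a filter of a mean normalized value of at least 1 over the samples and were tested, 13 were detected below it, and 8 were at 0 in every sample.

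TNF ligands are mostly membrane-bound trimers that cluster their receptors on the same or a neighbouring cell. Receptors with a death domain recruit adaptors that lead to caspases or to nuclear factor kappa B (NF-kB), receptors without one bind Traf proteins, and decoy or secreted receptors capture ligand without a signal. Ectodysplasin is the ligand of this family that skin is best known for: through Edar and its adaptor Edaradd it is needed for hair, tooth and sweat gland development.

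The sorted cells were GFP+ and came from the back skin of control mice, K5-rtTA/tet-GFP, and of p16 mice, K5-rtTA/tet-GFP/tet-p16, both of a mixed FVB, C57Bl and 129sv background. Mice of both groups received doxycycline from 3 weeks of age for 6 months, so both carried the Keratin 5-driven activator and an induced GFP, and only the p16 group carried the human p16 transgene. The Keratin 5 promoter is active in basal keratinocytes of the epidermis and in the outer layer of hair follicles, and a sorted cell is defined by GFP, not by p16. Each group had 4 samples, each about 80000 cells pooled from 3 mice after removal of CD140a+, CD45+ and CD31+ cells, and the 8 samples came from 3 independent experiments that the labels do not assign to samples.

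Values are reads per gene divided by a size factor of the sample. Each library held 1760953 to 3414362 reads on genes, so that 1 read was worth a normalized value of 0.742 to 1.53. The value of 3 reads, about the upper 95% counting limit behind a count of 0, was 2.23 to 4.58. The human CDKN2A transgene was at 0.7, 1.3, 2.5 and 1.5 in the controls. In the libraries labelled p16 replicate 1 to 4 it was at 1.6, 10.1, 16 and 7.4. For this gene the library labelled p16 replicate 1 thus lay within the control range, on 2 reads. In that library the sebaceous gland marker sum of 367 and the Dcn value of 85.6 lay outside the control ranges given below. EGFP was at 4152.0 to 5912.6 in control and 3161.8 to 3978.8 in p16 samples. The p16 replicate 4 library differed from the other p16 libraries by a chi-square per gene of 6.40 to 8.49, against 2.95 to 3.19 among those others and 3.45 to 5.03 among controls. The 6 basal keratinocyte markers were all detected, with summed values of 23438 to 40560 in control and 25299 to 28934 in p16 samples. Markers of other cell types differed between the groups. Called lower were 8 of 10 hair follicle markers (sums of 11834 to 16017 in control, 9048.4 to 9129.4 in p16) and 6 of 6 sebaceous gland markers (1274.3 to 1544.3 against 367 to 628.5). Krt15, with means of 10624 in control and 7066 in p16 cells, weighed most in the follicle sums. Among the called follicle markers the ratio of p16 to control means ran from 0.070 for Cd34 to 0.698 for Nfatc1. This leaves out Fgf18, with 5 reads over the p16 libraries. Postn, a hair follicle marker, went the other way (means of 287 and 501, limma adjusted p = 0.272). Also called lower were 2 of 6 melanocyte markers, whose sums overlapped (126 to 503 in control, 48.4 to 137.4 in p16). Of 4 Schwann and nerve markers, S100b was called lower (sums of 20.9 to 48.9 in control, 9.6 to 16.5 in p16). Of 6 differentiated keratinocyte markers, Lor was called higher and Sbsn and Ivl lower. Of 6 fibroblast markers, Dcn alone was called, higher, at 2.6 to 10.7 in control and 36.2 to 203 in p16 samples. The other 5 summed to 6.6 to 21.4 and 6.6 to 17.7, with Lum at 0. Of these, Col1a2 was lower in every p16 sample (means of 10.4 and 2.68, limma adjusted p = 0.0571). Col1a1 went the other way, on few reads (means of 1.775 and 5.675, limma adjusted p = 0.285). B cell and endothelial sums stayed at or below 6.4, with Cd79b, Cdh5, Kdr and Emcn at 0 in every sample. In such pooled cells, fewer cells of a type and less RNA per cell cannot be told apart.

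Of the 33 tested members, 1 was called at an adjusted p under 0.05 by limma over 12782 genes: Tnfrsf19 rose, and none fell. That is 3.03% of the members, beside 3.86% of all tested genes called in either direction, 1.24% higher and 2.61% lower. At an unadjusted p under 0.05, 3 members were higher (Tnfrsf19, Traf3, Tnfsf10) and 4 lower (Eda2r, Edar, Relt, Tnfrsf11b), 21.2% of members against 15.9% of all tested genes. The groups did not overlap for 4 members, with Tnfrsf19 and Tnfrsf1a higher and Eda2r and Edar lower in every p16 sample, 12.1% of members against 9.83% of all tested genes. The log2 fold change was above 0 for 22 members and below 0 for 11, with a median of 0.10 over members and of -0.00275 over all tested genes. For 13 members the 95% interval lay within a 1.5-fold change in either direction, and for 20 within a 2-fold change.

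**Figure D1:**
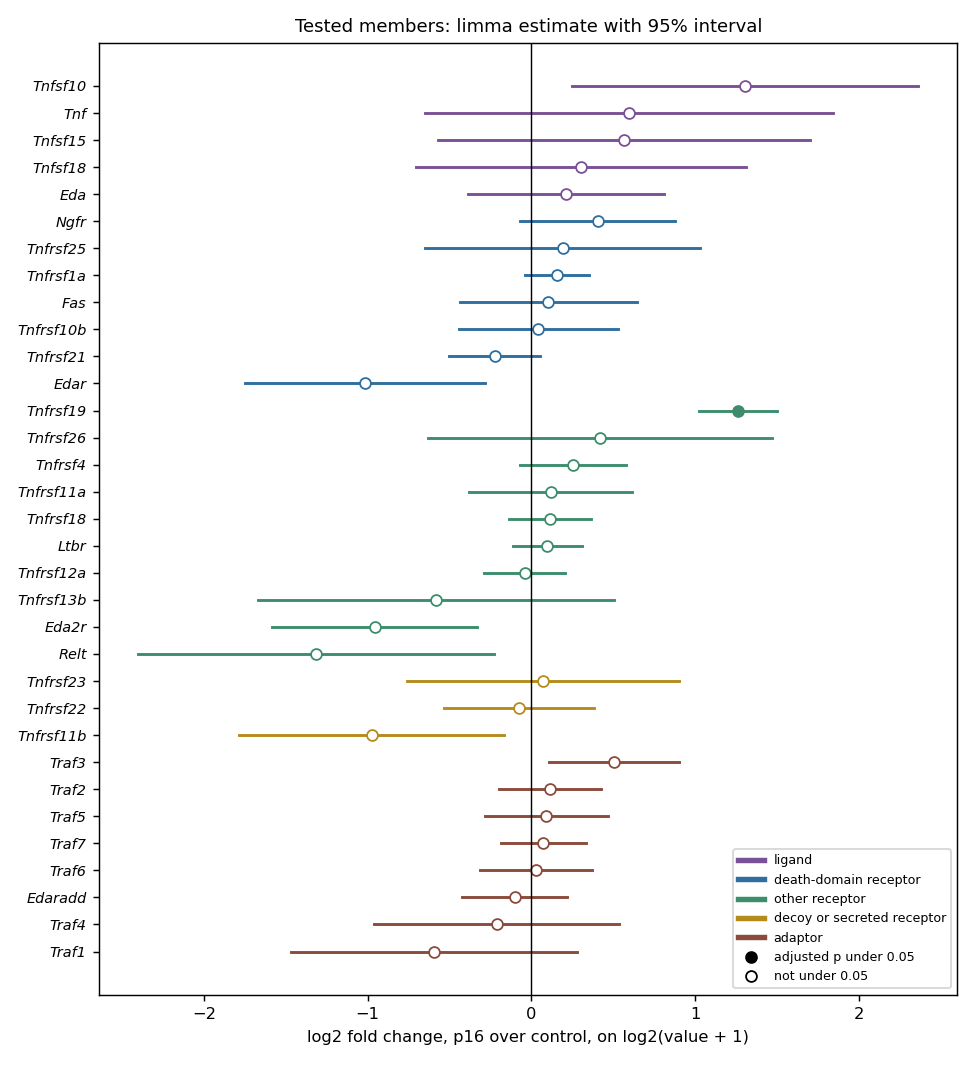
Log2 fold change of p16 over control (horizontal axis, on log2(value + 1)) with its limma 95% interval for each of the 33 tested members, coloured by role; a filled point has an adjusted p under 0.05. Tnfrsf19 at 1.26 is the filled point. Without passing the adjusted threshold, the intervals of Edar, Eda2r, Relt and Tnfrsf11b lie below 0 and those of Traf3 and Tnfsf10 above 0.

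Tnfrsf19 (also called Troy, ENSMUSG00000060548, chr14:60963875-61046490 of GRCm38, minus strand) encodes a receptor closely related to Edar that has no death domain, is expressed in developing skin and hair follicles, and is known as a target of Wnt/beta-catenin signalling. RefSeq gives it 2 start sites on GRCm38.p6. The 250 bases before each are shown because Tnfrsf19 is the member that was called, and capitals mark the letters of a TCF/LEF motif (CTTTGAA or CTTTGAT on either strand), here ATCAAAG on the given strand, 202 bases before the start.

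Tnfrsf19, inner start, chr14:61037988-61038237, minus strand: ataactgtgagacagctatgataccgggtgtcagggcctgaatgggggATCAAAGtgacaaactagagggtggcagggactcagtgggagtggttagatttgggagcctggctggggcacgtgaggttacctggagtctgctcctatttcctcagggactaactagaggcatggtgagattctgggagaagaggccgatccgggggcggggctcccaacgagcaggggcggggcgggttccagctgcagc
Tnfrsf19, outer start, chr14:61046856-61047105, minus strand: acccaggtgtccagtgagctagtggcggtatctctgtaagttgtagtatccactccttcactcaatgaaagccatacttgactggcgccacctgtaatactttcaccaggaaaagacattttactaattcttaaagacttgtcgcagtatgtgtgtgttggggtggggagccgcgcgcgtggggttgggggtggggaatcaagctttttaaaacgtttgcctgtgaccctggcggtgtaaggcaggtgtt

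The outer start held no match. Over the 300 bases from 250 before to 50 after a start, 8.65% of 32851 RefSeq promoters held a TCF/LEF match, as did 6 of the 48 promoters of the 44 matched members (12.5%; Cd27, Edar, Fas, Tnfrsf19, Tnfrsf9 and Traf4). A match is a description of letters, not of binding.

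Control replicates 1 to 4 had Tnfrsf19 at 214.4, 288.8, 238.9 and 216.9, and p16 replicates 1 to 4 at 630.9, 541.8, 580.8 and 536.1. Every p16 sample was above every control sample by a gap far wider than the spread within either group. The mean was 239.8 ± 34.5 (SD, n = 4) in control and 572 ± 43.8 in p16 cells, a 2.39-fold higher level with a 95% interval from limma of 2.03 to 2.82. Here and below, log2 fold changes and 95% intervals are on the log2(value + 1) scale, which understates the change of low genes. The log2 fold change was 1.26 ± 0.11 (SE), with an adjusted p of 2.48e-05 by limma and an exact two-sided permutation p of 0.0286, the smallest that 4 samples against 4 allow. Ordered by p, the gene had rank 8 of the 12782 tested. Leaving out any single library gave a log2 fold change of 1.21 to 1.35, including 1.21 without the library labelled p16 replicate 1 and 1.29 without p16 replicate 4. Hair follicle and sebaceous marker sums, which were lower in all p16 samples, moved opposite to Tnfrsf19. Dcn among the fibroblast markers and Lor among the differentiated keratinocyte markers (91.8 in control and 303 in p16 cells, limma adjusted p = 0.00951) moved with it, while Sbsn and Ivl moved opposite. The part of these cells in its level was not tested. Gm41168 overlaps the gene on the other strand.

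**Figure D2:**
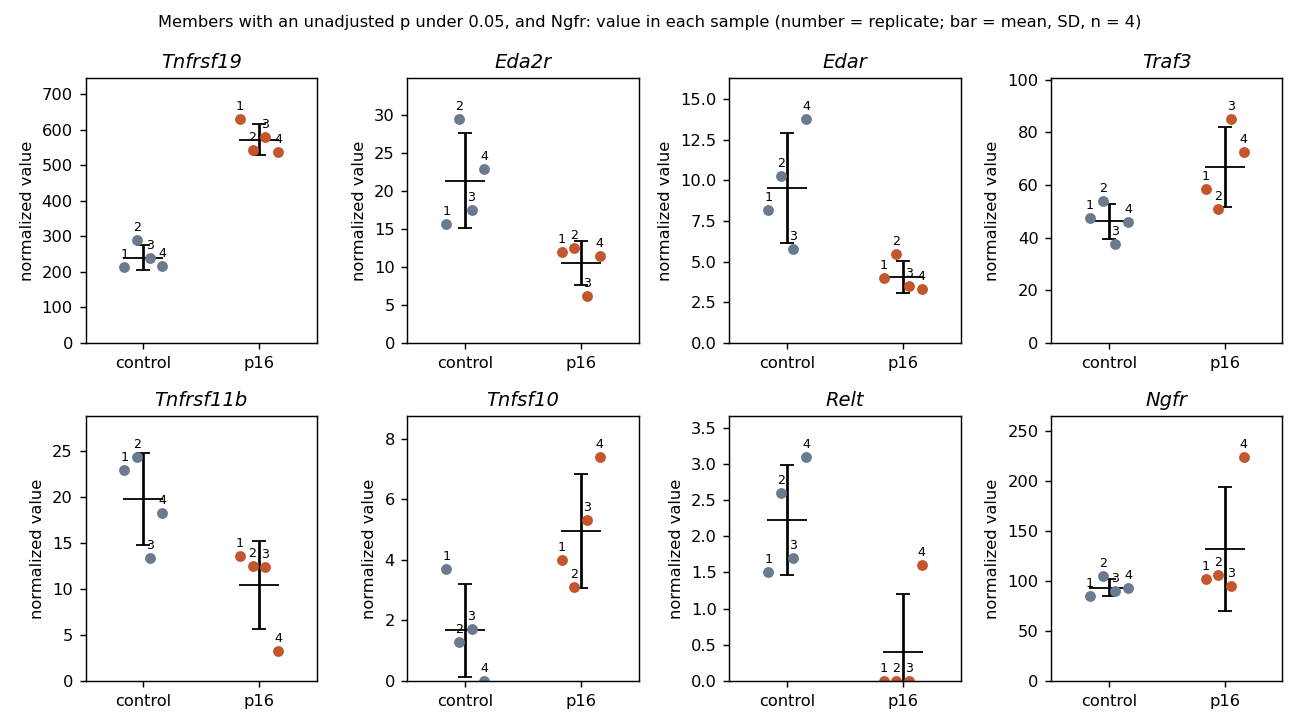
Normalized value (vertical axis, from 0, separate scale in each panel) of the 7 members with an unadjusted p under 0.05 and of Ngfr in each control and p16 sample, numbered by replicate, with the mean and SD of 4 samples. Tnfrsf19 runs from 536.1 to 630.9 in p16 and from 214.4 to 288.8 in control samples, Eda2r and Edar do not overlap between groups, and the high Ngfr value of 224.5 is p16 replicate 4 alone.

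The other parts of the ectodysplasin axis gave lower values for both receptors and overlapping values for the ligand and the adaptor, and none of the 4 passed the adjusted threshold. Edar (ENSMUSG00000003227, chr10:58600789-58675654, minus strand), the death-domain receptor of the A1 form of ectodysplasin, and Eda2r (ENSMUSG00000034457, chrX:97333840-97377216, minus strand), the receptor of the A2 form that lacks a death domain, are shown with the 250 bases before their RefSeq starts (GRCm38.p6), so that they can be read beside Tnfrsf19. The capitals mark CTTTGAT, 233 bases before the start of Edar, and Eda2r held no TCF/LEF match.

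Edar, chr10:58675697-58675946, minus strand: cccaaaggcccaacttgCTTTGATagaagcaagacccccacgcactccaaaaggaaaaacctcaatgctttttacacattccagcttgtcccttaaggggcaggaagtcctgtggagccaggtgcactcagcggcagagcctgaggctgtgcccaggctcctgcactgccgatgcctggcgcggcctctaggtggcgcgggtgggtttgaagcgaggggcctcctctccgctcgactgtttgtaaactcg
Eda2r, chrX:97377210-97377459, minus strand: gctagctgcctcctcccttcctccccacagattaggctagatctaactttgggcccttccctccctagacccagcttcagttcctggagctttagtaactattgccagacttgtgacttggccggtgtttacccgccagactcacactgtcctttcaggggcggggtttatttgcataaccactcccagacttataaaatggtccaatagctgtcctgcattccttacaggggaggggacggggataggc

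Control replicates 1 to 4 had Eda2r at 15.6, 29.5, 17.5 and 22.9, and p16 replicates 1 to 4 at 12, 12.5, 6.2 and 11.5. The highest p16 sample lay below the lowest control sample. Means were 21.4 ± 6.24 (SD, n = 4) in control and 10.55 ± 2.93 in p16 cells, a ratio of 0.494, and the log2 fold change of -0.96 ± 0.29 (SE) had a limma adjusted p of 0.0952 and an exact permutation p of 0.0286. Its adjusted p ran from 0.0733 to 0.262 over 16 other ways of processing the table, and the lone low value of p16 replicate 3 took the log2 fold change from -0.74 without it to -0.96 with it.

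Edar had values of 8.2, 10.3, 5.8 and 13.8 in control and of 4.0, 5.5, 3.5 and 3.3 in p16 replicates 1 to 4. All p16 samples were below all control samples, the nearest pair being 5.5 and 5.8. Means were 9.53 ± 3.39 (SD, n = 4) and 4.08 ± 0.995, a ratio of 0.428, and the log2 fold change of -1.01 ± 0.34 (SE) had a limma adjusted p of 0.138 and an exact permutation p of 0.0286. These values rest on 35 reads over the control and 20 over the p16 libraries. Over the alternatives that tested it the adjusted p ran from 0.103 to 0.349. Hair follicle and sebaceous marker sums were lower in the same p16 samples as Edar and Eda2r. The ratios of single called follicle markers, given above, ran from below to above those of Edar and Eda2r. The part of follicle and sebaceous cells in the Edar and Eda2r values was not tested.

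Eda itself (ENSMUSG00000059327) encodes the ligand, a trimeric membrane protein released by furin. Its values were 31.2, 38.5, 20.9 and 15.3 in control and 21.6, 28.1, 31.0 and 37.8 in p16 replicates 1 to 4. The groups overlapped over most of their range. Means were 26.5 ± 10.4 (SD, n = 4) and 29.6 ± 6.72, the log2 fold change was 0.21 ± 0.28 (SE), and its 95% interval allowed a ratio from 0.765 to 1.75 (limma adjusted p = 0.793, exact permutation p = 0.714). Edaradd (ENSMUSG00000095105), the adaptor that links Edar to Traf6, had values of 144.7, 148.9, 103.6 and 120.7 in control and of 135.1, 128.0, 124.1 and 94.6 in p16 replicates 1 to 4. These groups overlapped too, with means of 129 ± 21.3 (SD, n = 4) and 120.5 ± 17.8 and a log2 fold change of -0.10 ± 0.15 (SE), whose interval allowed a ratio from 0.747 to 1.16 (limma adjusted p = 0.821, exact permutation p = 0.514).

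**Figure D3:**
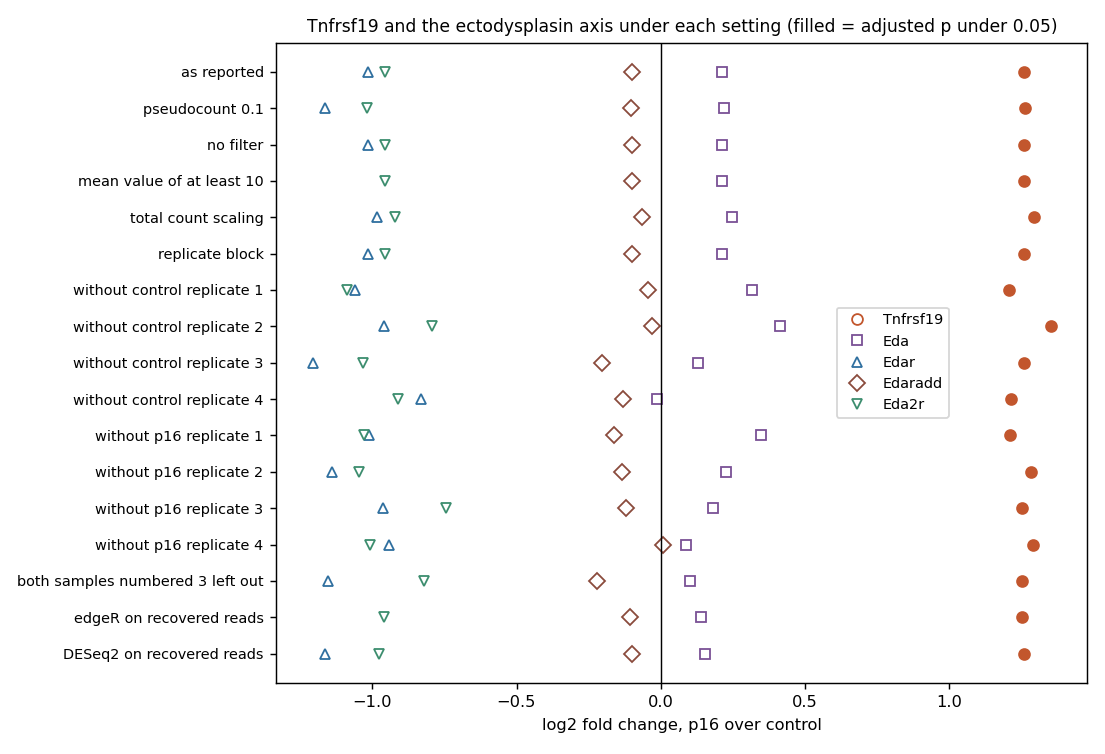
Log2 fold change of p16 over control (horizontal axis) for Tnfrsf19, Eda, Edar, Edaradd and Eda2r under each way of processing the table (vertical axis); filled symbols have an adjusted p under 0.05, and a missing Edar symbol means that a filter left the gene out. Tnfrsf19 is filled throughout, Edar and Eda2r stay below 0 and open, and Eda runs from -0.01 to 0.41.

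The ligands other than Eda had few reads. Together the 17 of them had 16, 3, 10 and 6 reads in control and 14, 13, 17 and 19 reads in p16 replicates 1 to 4, and only Tnfsf10, Tnf, Tnfsf15 and Tnfsf18 passed the filter. At 0 in every sample were 6 ligands, namely Fasl, Cd40lg, Cd70, Tnfsf11 (the RANK ligand), Tnfsf13 and Tnfsf14. Tnfsf10 (ENSMUSG00000039304), the death ligand TRAIL, had values of 3.7, 1.3, 1.7 and 0.0 in control and 4.0, 3.1, 5.3 and 7.4 in p16 replicates 1 to 4. Only p16 replicate 2 lay within the control range. Means were 1.68 ± 1.53 (SD, n = 4) and 4.95 ± 1.87 on 8 and 24 reads, with a log2 fold change of 1.30 ± 0.49 (SE), a limma adjusted p of 0.196 and an exact permutation p of 0.0571. Tnf, Tnfsf15 and Tnfsf18 had 2, 5 and 4 reads over the control and 7, 11 and 8 over the p16 libraries, with no more than 4 reads of any of them in a library. Tnfsf12 (TWEAK), below the filter, had 7 reads over the control libraries and 0 over the p16 libraries, and without the filter it had a limma adjusted p of 0.0357. Its control mean of 1.65 lies under the value of 3 reads in a p16 library, so no ratio is given, and the annotated read-through gene Tnfsfm13 overlaps it on the same strand. The remaining ligands below the filter (Lta, Ltb, Tnfsf13b, Tnfsf4, Tnfsf8 and Tnfsf9) had at most 4 reads over either group.

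Among the 7 death-domain receptors, all were tested, 5 had a log2 fold change above 0 and 2 below, and the median was 0.10. Tnfrsf1a, the main TNF receptor of epithelial cells, had values of 444.4, 431.2, 447.7 and 401.8 in control and 476.5, 448.9, 464.6 and 533.6 in p16 replicates 1 to 4. Every p16 sample was above every control sample, by as little as 448.9 against 447.7. The means of 431 ± 20.9 (SD, n = 4) and 481 ± 36.9 gave a ratio between 0.973 and 1.27 at 95% (limma adjusted p = 0.452, exact permutation p = 0.0286). Ngfr, the low-affinity neurotrophin receptor p75, had values of 84.6 to 105.2 in control samples, 102.3, 106.2 and 94.9 in p16 replicates 1 to 3 and 224.5 in p16 replicate 4. Its log2 fold change was 0.40 (limma adjusted p = 0.406) and 0.12 without p16 replicate 4. In that library Thy1 was also highest, at 2908.2 against 582.1 to 1466.3 elsewhere, whereas the other 6 T and NK cell markers in the table summed to 11.5 there and to between 6.3 and 20 elsewhere. The Schwann and nerve sum there was 10.7, within the p16 range of 9.6 to 16.5 and below the control range of 20.9 to 48.9. The part of other cells in the Ngfr value was not tested.

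Beside Edar, described above, none of the remaining death-domain receptors was called by limma or had an unadjusted p under 0.05. Fas, the receptor of Fas ligand, averaged 23.4 in control and 25.1 in p16 cells, with a ratio between 0.739 and 1.56 at 95%. Tnfrsf10b, the mouse TRAIL receptor, averaged 33.7 in both groups, with a ratio between 0.735 and 1.44. Tnfrsf21 (death receptor DR6) averaged 121 and 104.5, with a ratio between 0.706 and 1.04 and a limma adjusted p of 0.443. Tnfrsf25 averaged 7.93 and 8.40, and its highest p16 value of 12.3 was again that of replicate 4.

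Of the 18 receptors grouped as neither death-domain receptors nor decoy or secreted receptors, 10 were tested, and beside Tnfrsf19 none was called. Ltbr, the lymphotoxin beta receptor, averaged 469 in control and 504 in p16 cells, with a ratio between 0.926 and 1.24 at 95%. Tnfrsf18 (GITR) averaged 411 and 446 (ratio 0.909 to 1.29), and Tnfrsf12a (Fn14, the TWEAK receptor) 344 and 335 (ratio 0.818 to 1.15). Tnfrsf4 (OX40) averaged 66.5 and 79.4 (ratio 0.954 to 1.49), and Tnfrsf11a (RANK) 25.6 and 26.9 (ratio 0.768 to 1.53). For Ltbr, Tnfrsf18, Tnfrsf12a and Tnfrsf4 the interval thus held no change of 1.5-fold or more. The low receptors Tnfrsf13b and Tnfrsf26 averaged 2.28 and 5.20 in control and 1.38 and 5.78 in p16 cells. Cd27, Cd40, Tnfrsf13c, Tnfrsf1b, Tnfrsf8 and Tnfrsf9, receptors known mainly from lymphocytes and myeloid cells, were below the filter with at most 4 reads over a group, and Tnfrsf14 and Tnfrsf17 were at 0 in every sample. B cell markers, for comparison, summed to at most 2.4, and Langerhans and myeloid markers to 136.1 to 159.2 in control and 142.8 to 190.5 in p16 samples. No Langerhans or myeloid marker was called. Cd207 among them was higher in every p16 sample, on 2 and 15 reads (means of 0.375 and 3.05, limma adjusted p = 0.0922).

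Relt (ENSMUSG00000008318), another receptor of the family without a death domain, had values of 1.5, 2.6, 1.7 and 3.1 in control replicates 1 to 4, each of 2 reads, and 0.0, 0.0, 0.0 and 1.6 in p16 replicates 1 to 4. Both groups lay at or below the value of 3 reads, so no ratio is given, and p16 replicate 4 overlapped the control range. The limma log2 fold change of -1.31 ± 0.51 (SE), which depends on the pseudocount, had an adjusted p of 0.203 and an exact permutation p of 0.0571.

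The secreted and decoy receptors include Tnfrsf11b (ENSMUSG00000063727), or osteoprotegerin, which captures the RANK ligand and TRAIL. Its values were 23.0, 24.4, 13.4 and 18.3 in control and 13.6, 12.5, 12.4 and 3.3 in p16 replicates 1 to 4. The groups met at 13.4 and 13.6, and p16 replicate 4 was far below the rest. Means were 19.8 ± 4.99 (SD, n = 4) and 10.45 ± 4.8, and the log2 fold change of -0.97 ± 0.38 (SE) had a limma adjusted p of 0.206 and an exact permutation p of 0.0571. Without p16 replicate 4 the log2 fold change was -0.55 (limma adjusted p = 0.368). Tnfrsf22 and Tnfrsf23, the mouse decoy receptors for TRAIL, averaged 29.8 and 11.4 in control and 27.8 and 10.85 in p16 cells. They lie beside Tnfrsf26 on chromosome 7 and are near copies of each other, so reads could be split among these 3 genes, and E230032D23Rik overlaps them on the other strand.

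All 8 adaptors were tested and none was called. Traf3 (ENSMUSG00000021277), which keeps the kinase NIK low and thereby restrains the noncanonical NF-kB pathway, had values of 47.5, 53.9, 37.6 and 45.8 in control and 58.4, 50.7, 85.1 and 72.4 in p16 replicates 1 to 4. Only p16 replicate 2 lay within the control range. Means were 46.2 ± 6.71 (SD, n = 4) and 66.7 ± 15.2, a ratio of 1.44, and the log2 fold change of 0.50 ± 0.19 (SE) had a limma adjusted p of 0.183 and an exact permutation p of 0.0571. With the samples numbered 3 of both groups left out, the only ones whose labels name another library protocol, the log2 fold change was 0.29 (limma adjusted p = 0.612). The transcript 4930595D18Rik overlaps Traf3 on the other strand. Its RefSeq promoter was 1 of 5 among the 48 member promoters that held the letters of an NF-kB motif, GGG and TTTCC with any 2 bases between them, on either strand (10.4%; Ltb, Tnfrsf25, Tnfrsf9, Traf2 and Traf3), against 1.63% of all 32851.

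Traf2, the adaptor of the TNF receptors, averaged 78.0 in control and 84.7 in p16 cells, with a ratio between 0.870 and 1.34 at 95%. Traf6, which Edaradd recruits, averaged 64.0 and 66.1 (ratio 0.805 to 1.29), Traf5 62.0 and 67.3 (ratio 0.820 to 1.38), and Traf7 196 and 207 (ratio 0.878 to 1.26). With Edaradd, these are the 5 adaptors whose interval held no change of 1.5-fold or more. Traf1 averaged 10.5 and 7.28 and Traf4 13.9 and 11.3, with wider ratios of 0.361 to 1.21 and 0.513 to 1.45.

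The 5 signalling lists were taken from general knowledge, but with earlier results of these data known, so their shares are no independent test. Among their 72 tested genes, 3 were called higher and 3 lower, 8.33% against 3.86% of all tested genes. Of these, 1 higher and 2 lower were among the 9 tested genes linked to ectodysplasin in hair development. At an unadjusted p under 0.05 the lists held 23.6% against 15.9%. In the list of 26 receptor-proximal signalling genes, all tested, 1 was called higher and none lower, with a median log2 fold change of 0.05. This was Map3k14, the kinase NIK that Traf3 restrains, at 17.3 ± 1.97 in control and 35.3 ± 10.3 (SD, n = 4) in p16 cells (log2 fold change 0.95, limma adjusted p = 0.0352). The call was lost without any single library except p16 replicate 3, with limma adjusted p-values of 0.0521 to 0.142. Of 18 NF-kB factors and inhibitors, all tested, none was called in either direction by limma, 3 were higher and 1 lower at an unadjusted p under 0.05, and the median was 0.18. Those 4 were Tnip3, an inhibitor of NF-kB activation (0.925 in control and 7.05 in p16 cells), the NF-kB subunit Rela (112 and 142), its cofactor Bcl3 (17.6 and 28.0) and Tax1bp1, a partner of the inhibitor A20 (580.4 and 437), with limma adjusted p-values of 0.0671 to 0.283. Over the 5 lists, 3 genes were called higher and 3 lower by edgeR and by DESeq2, 3 and 2 by limma with a pseudocount of 0.1 or total count scaling, and 2 and 2 without the filter.

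Of 22 TNF-responsive genes of keratinocytes, 16 were tested, 1 was called higher and 1 lower, and the median log2 fold change was 0.21. The list held 5 higher and 1 lower at an unadjusted p under 0.05 by limma, which 15.9% of all tested genes reached. Ccl20, the chemokine that attracts Ccr6-bearing T cells and dendritic cells, averaged 6.58 in control and 25.1 in p16 cells (log2 fold change 1.70, limma adjusted p = 0.00854, and 0.0778 with both samples numbered 3 left out). Lcn2, the siderophore-binding protein lipocalin, averaged 39.3 and 14.9 (log2 fold change -1.45, limma adjusted p = 0.0413, and up to 0.138 with 1 library left out). The call of Lcn2 was lost without control replicate 1, 2 or 3 or p16 replicate 1 or 4. Cxcl2, Il6 and Csf2 were at 0 in every sample.

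Of 15 genes linked to ectodysplasin in hair development, 9 were tested, 1 was called higher and 2 lower, with a median of 0.06. Lhx2, a transcription factor of hair follicle stem cells that is also one of the follicle markers above, averaged 519.7 in control and 120.0 in p16 cells (log2 fold change -2.16, limma adjusted p = 0.000111), and the receptor Lgr4 404 and 237 (log2 fold change -0.78, limma adjusted p = 0.00722). Wnt10a, a Wnt ligand of the follicle and epidermis, averaged 422 and 579.8 (log2 fold change 0.45, limma adjusted p = 0.0326), a call lost without control replicate 1, 3 or 4 or p16 replicate 1 or 3 (up to 0.115). Dkk4, Foxi3 and Cxcr3 were at 0 in every sample. None of the 3 proteases that release or shed ligands and receptors (Furin, Adam10 and Adam17) was called by limma or had an unadjusted p under 0.05, and their median was -0.08. Furin, which releases ectodysplasin, averaged 499 ± 37.7 in control and 443 ± 16.2 (SD, n = 4) in p16 cells (limma adjusted p = 0.389).

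**Figure D4:**
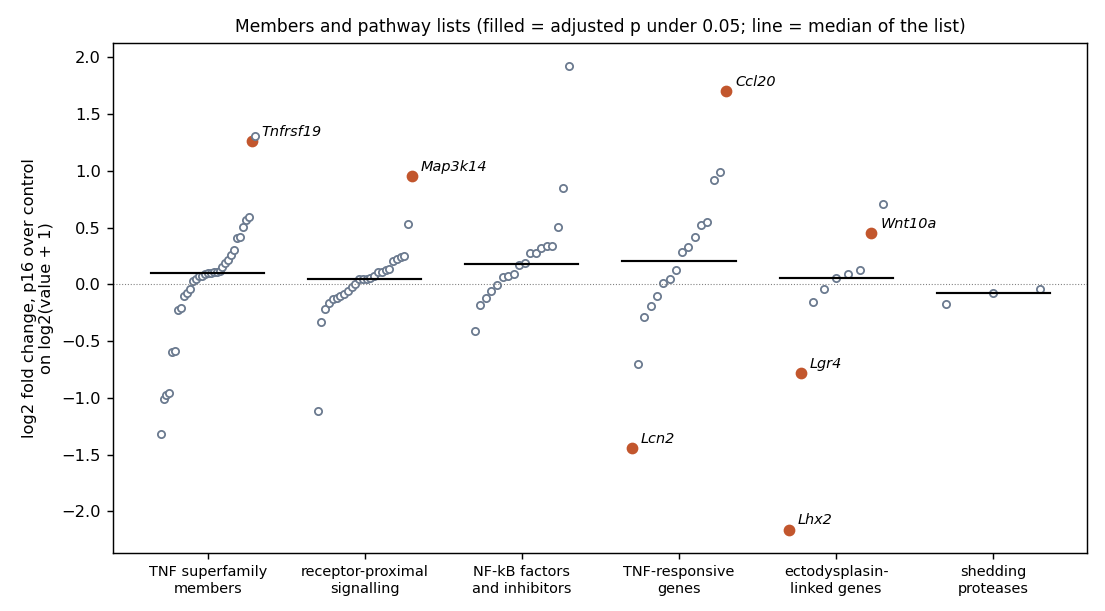
Log2 fold change of p16 over control (vertical axis, on log2(value + 1)) for the tested members and for the tested genes of 5 signalling lists, 1 point per gene, sorted within each list; filled points have an adjusted p under 0.05 and lines are list medians. Medians lie between -0.08 and 0.21, and the 7 filled genes are the ones named beside them.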

How the data were processed

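GFP+ keratinocytes were profiled by the CEL-Seq protocol (for replicate 3 of both groups the labels name an Illumina RNA protocol). Per the labels and the study's methods, reads were aligned to GRCm38 with TopHat2 and counted per gene, with HTSeq and DESeq2 in the submitters' processing notes; use of molecular identifiers and strand in counting is not given in the sources used here. The deposited signal was a count divided by a size factor, to 1 decimal, by the authors. Whole reads were recovered for 100% of values (tolerance 0.05 in normalized value), giving 1760953 to 3414362 reads per library. Limits from read counts cover counting error only. Of 21 samples, 8 were used and 13 were not analysed here.

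The 12782 genes whose mean reached 1 were tested by limma (version 3.58.1, R 4.3.3) on log2(value + 1) with a mean-variance trend, 4 control against 4 p16 samples, Benjamini-Hochberg adjusted over all genes, called under 0.05. Single genes were also compared by exact two-sided permutation. Alternatives were a pseudocount of 0.1, no filter, a mean of at least 10, total count scaling, a replicate block, each library left out, both samples numbered 3 left out, and edgeR (4.0.16) and DESeq2 (1.42.0) on the recovered reads. Scripts were tested on simulated data. Full statistics are given for members called or with an unadjusted p under 0.05 and for the ectodysplasin axis, and from the signalling lists for every called gene, else up to 4 per list of lowest p; Ngfr, Tnfrsf1a, Tnfsf12 and Furin were described more fully after their values were seen. Members and lists were chosen with earlier results of these data known. The table's group means, fold changes, test statistics and p-values, computed by the authors, were not used. Promoters are from RefSeq (GRCm38.p6), matched by symbol for 44 of 54 members.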

Additional observations from a re-analysis of the deposited data

Results flagged for a closer look

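In 66 groups of 4 samples (33 tested members in control and in p16 cells), a sample lay apart from the other 3 by more than Dixon's 95% critical value for that size in 7 cases, where chance gives about 1 in 20, or 3.3. Of these 7, 4 were in p16 replicate 4, the library that also differed most from its group over all genes. In that library Ngfr was at 224.5 (others 94.9 to 106.2), Tnfrsf25 at 12.3 (others 7.0 to 7.2), Tnfrsf11b at 3.3 (others 12.4 to 13.6) and Relt at 1.6, or 2 reads, where the other p16 samples were at 0.0. Eda2r was at 6.2 in p16 replicate 3, against 11.5 to 12.5 in the other p16 samples. In control cells, Tnfrsf26 was at 13.4 in replicate 1 (others 1.7 to 3.1) and Traf5 at 53.5 in replicate 3 (others 64.2 to 66.0). Tnfrsf19 had no such sample in either group.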

How the results depend on the processing

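Tnfrsf19 was called higher under all 16 alternatives, with adjusted p-values from 1.64e-21 by DESeq2 on recovered reads to 0.00096 by limma with both samples numbered 3 left out, and no other member was called by any of them except Tnfsf12, lower, where no filter was used (a count of 1 lower). At an unadjusted p under 0.05 the members counted 3 higher and 4 lower, the signalling list genes 12 and 5, and all genes 897 and 1141. Over all genes (159 higher and 334 lower as reported), leaving out 1 library gave 69 to 196 higher and 177 to 343 lower, and leaving out both samples numbered 3 gave 66 and 157. Signalling list genes called higher, 3 as reported, numbered 1 to 4 with 1 library left out and 1 with both samples numbered 3 left out. Those called lower, 3 as reported, numbered 2 to 3 with 1 library left out and 2 with a pseudocount of 0.1, no filter, total count scaling or both samples numbered 3 left out. With replicate number as a block, 5 signalling list genes were called higher and 4 lower, and 216 and 392 over all genes. Tnfrsf19 remained the called member. Deviations of same-numbered samples correlated by 0.004 to 0.083 in 4 pairs, and those of differently numbered samples by -0.1 to 0.058 in 12 pairs. The numbers were not taken as pairing samples, a choice that these overlapping ranges do not settle.

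Of 503 log2 fold changes of members under the alternatives, 30 had the opposite sign, all for members far from the threshold. With both samples numbered 3 left out these were Fas (-0.059), Tnfrsf11a (-0.039), Tnfrsf12a (0.042), Tnfrsf22 (0.13), Tnfrsf25 (-0.051), Tnfrsf26 (-0.020) and Traf6 (-0.053), by edgeR Tnfrsf10b (-0.0049) and Tnfrsf23 (-0.091), and by DESeq2 Tnfrsf23 (-0.079). With 1 library left out the ranges crossed 0 for Eda (-0.012 to 0.41), Edaradd (-0.20 to 0.0096), Fas (-0.087 to 0.25), Tnfrsf10b (-0.14 to 0.17), Tnfrsf12a (-0.11 to 0.041), Tnfrsf22 (-0.20 to 0.050), Tnfrsf23 (-0.21 to 0.38), Tnfrsf25 (-0.11 to 0.44), Traf4 (-0.51 to 0.020), Traf5 (-0.061 to 0.18), Traf6 (-0.068 to 0.14), Traf7 (-0.015 to 0.13) and the protease gene Adam10 (-0.14 to 0.14); the cause was not tested. The 21 members not tested had few or no reads, and whether depth or lack of expression set this was not tested. Edar, Tnfsf10 and Relt also rest on few reads and were among the members that some filters left out. Replicates are pools of mice, and the 3 experiments could not be entered as a term.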
